A study of Mus musculus with 12 samples.

Results

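The 10 genes described here, Sohlh2, Stra8, Dazl, Ddx4, Mael, Asz1, Hormad1, Sycp1, Sycp3 and Tex101, belong to the germline and are kept silent in other tissues by methylation of their promoters. They were chosen by name, and all 10 were found among the 18412 genes of the deposited data. The data are strand-specific sequencing of polyadenylated RNA from mouse embryonic stem cells (ESCs), pluripotent cells of the early embryo. Of the 12 libraries, 3 came from a Dicer1-/- line and 3 from TFC, its wild-type control, and 3 came from a Dgcr8-/- line and 3 from V6.5, its own wild-type control. Dicer1 encodes the nuclease that releases microRNAs and other small RNAs from double-stranded precursors, and Dgcr8 the partner of Drosha that recognises microRNA hairpins in the nucleus. All 4 lines grew on gelatin-coated plastic with 15% serum and 1000 U/mL leukaemia inhibitory factor, and the labels name no other treatment. The labels do not say whether a line is 1 clone or whether its libraries came from separate cultures. Each comparison therefore sets a knockout line against another line, the missing factor and other differences between the lines cannot be told apart, and p-values measure the spread between libraries, which may be technical.

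Promoters of such genes are rich in CpG dinucleotides. In the mouse, Dnmt3a and Dnmt3b methylate them around implantation with the help of the cofactor Dnmt3l, and Dnmt1 with Uhrf1 copies the methylation at each cell division. Many of them are also held down in ESCs by a variant Polycomb complex whose DNA-binding subunits are E2f6 and the pair Mga and Max. Primordial germ cells, the embryonic precursors of sperm and eggs, erase this methylation, and genes such as Dazl and Ddx4 are switched on there.

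Promoter windows from RefSeq (build GRCm38.p6), reaching from 250 bases before to 50 after the annotated start, were matched for 10 of 10 genes. Those of Sohlh2, Hormad1, Ddx4 and Dazl are printed because the results turn on these genes, whose exons or introns had every Dicer1-/- library above every TFC library. They are given 5' to 3' on the strand of the gene, with each CpG, the target of DNA methylation, in capitals.
Sohlh2, chr3:55181794-55182093, plus strand: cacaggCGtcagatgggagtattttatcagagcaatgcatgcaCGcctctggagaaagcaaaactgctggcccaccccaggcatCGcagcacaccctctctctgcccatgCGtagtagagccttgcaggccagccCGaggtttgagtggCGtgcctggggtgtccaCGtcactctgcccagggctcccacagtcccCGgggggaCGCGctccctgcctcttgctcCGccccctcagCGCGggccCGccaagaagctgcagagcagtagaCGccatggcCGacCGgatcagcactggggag
Hormad1, chr3:95559427-95559726, plus strand: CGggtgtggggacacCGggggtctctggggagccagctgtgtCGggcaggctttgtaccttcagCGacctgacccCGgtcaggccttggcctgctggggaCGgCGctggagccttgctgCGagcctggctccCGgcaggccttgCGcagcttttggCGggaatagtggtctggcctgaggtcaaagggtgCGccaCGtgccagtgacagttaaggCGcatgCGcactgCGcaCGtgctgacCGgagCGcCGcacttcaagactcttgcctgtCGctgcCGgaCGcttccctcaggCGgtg
Ddx4, chr13:112652261-112652560, minus strand: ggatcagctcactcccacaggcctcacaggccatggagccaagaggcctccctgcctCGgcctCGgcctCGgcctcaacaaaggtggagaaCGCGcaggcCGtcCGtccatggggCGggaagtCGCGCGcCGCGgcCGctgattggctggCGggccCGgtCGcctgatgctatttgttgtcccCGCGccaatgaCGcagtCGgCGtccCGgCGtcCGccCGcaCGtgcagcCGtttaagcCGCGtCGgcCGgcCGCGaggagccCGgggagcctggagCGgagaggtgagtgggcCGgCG
Dazl, chr17:50293571-50293870, minus strand: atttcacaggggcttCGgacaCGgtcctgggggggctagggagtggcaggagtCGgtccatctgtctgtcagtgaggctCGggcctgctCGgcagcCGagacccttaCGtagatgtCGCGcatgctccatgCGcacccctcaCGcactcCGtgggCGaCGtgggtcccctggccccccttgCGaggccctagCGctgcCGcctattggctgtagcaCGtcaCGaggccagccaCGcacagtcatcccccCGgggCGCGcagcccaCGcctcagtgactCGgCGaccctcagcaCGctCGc

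The window of Sohlh2 holds 17 CpG, that of Hormad1 24, that of Ddx4 38 and that of Dazl 28. Over all 32851 promoter windows of 300 bases the median was 7, with quartiles of 3 and 20. Each of the 10 members lay above that median, from 10 CpG in Stra8 to 38 in Ddx4. Methylation itself was not measured in these libraries.

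**Figure D1:**
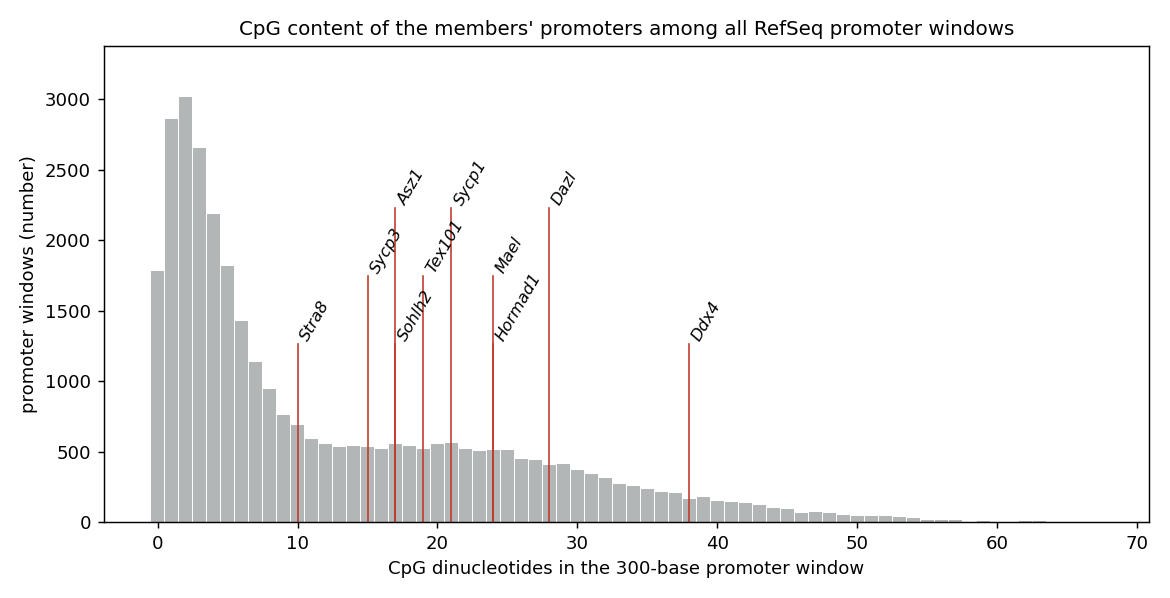
Number of CpG dinucleotides in the 300-base promoter window (horizontal axis) against the number of windows (vertical axis), with red lines at the 10 germline genes. Their heights only separate the names. All 10 lie to the right of the median of 7, from 10 in Stra8 to 38 in Ddx4.

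An E2F-type motif, GCGGGA, and an E-box, CACGTG, were searched on both strands, and no match of one overlaps a match of the other in the members. The first was present in 19.98% of all windows, the second in 7.15% and both in 1.994%. Of the 10 members, 5 held the E2F-type motif, and the same 5, Ddx4, Mael, Sycp1, Sycp3 and Hormad1, also held the E-box. Both motifs contain a CpG, and the members' windows held a median of 20 CpG against 7 over all windows. The shares over all windows are therefore no background matched for CpG, and enrichment was not tested. In Hormad1 the E2F-type letters begin 95 bases before the start and the E-boxes 57 and 20 bases before it, and in Ddx4 they begin 136 and 29 bases before it. In the printed windows the E-box reads caCGtg. Neither string of letters occurs in the windows of Sohlh2, Dazl, Stra8, Tex101 and Asz1, which says nothing about binding of the factors.

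The deposited values are group means of normalised reads, that is the reads of a gene divided by a size factor for the depth of the library. Each mean was solved for the whole reads of its 3 libraries, which are called A, B and C because they carry no replicate number. Libraries held 5889725 to 31368159 exonic and 559057 to 5597604 intronic reads. In each group A is the library that correlated least with the others (r of 0.741 to 0.861 across genes), and results that rest on it are given without it. B and C correlated at 0.864 in Dicer1-/-, 0.809 in TFC, 0.921 in Dgcr8-/- and 0.907 in V6.5. The highest r of A in these lines was 0.861, 0.795, 0.830 and 0.814, so A stood little apart in the Dicer pair. Reads of a gene are given as these normalised values, but as whole reads for Asz1 and Tex101. Values are not per length unless stated, and they are compared within 1 table only. A gene was tested where its mean over the 6 libraries of a table was at least 10, and a difference is called where the adjusted p of limma, corrected over all genes of the table, is under 0.05. Fold changes are on the log2(value + 1) scale, knockout minus wild type. In 3 against 3 libraries an exact permutation test cannot give a two-sided p under 0.1, so none is given. Exonic reads of the targeted genes were lower in each knockout without overlap, Dicer1 at 1590 against 3239 in TFC (adjusted p = 0.0753) and Dgcr8 at 803.8 against 2528 in V6.5 (adjusted p = 0.110). Which exons were removed is not stated, so these levels do not check for a null allele.

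Among the members, Sohlh2 was the 1 gene called higher in the exons of both knockouts, 8.76-fold in Dicer1-/- cells and 23.5-fold in Dgcr8-/- cells. Hormad1, the meiotic chromosome protein, was higher in every library of each knockout but missed the threshold, and so did Ddx4 in Dicer1-/- cells. The exonic reads of the other members had groups that overlapped in each pair, as had those of Ddx4 in the Dgcr8 pair, and Asz1 was listed at 0. Of the 8 members tested in Dicer exons, 1 was called higher and 0 lower, where 1.02% and 0.228% of the 13172 genes tested were. In Dgcr8 exons 8 members were tested as well, and again 1 was called higher and 0 lower, against 0.745% and 0.518% of 12745 genes. The median fold change of the tested members was 0.05 in Dicer exons and 0.36 in Dgcr8 exons, beside -0.01 and -0.08 over all genes tested. Groups without overlap, all 3 knockout libraries being the higher ones, were seen for 3 members in Dicer exons and 2 in Dgcr8 exons, where 11.7% and 10.6% of the genes tested had them. Tex101 and Asz1 lay under the filter in both tables.

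**Figure D2:**
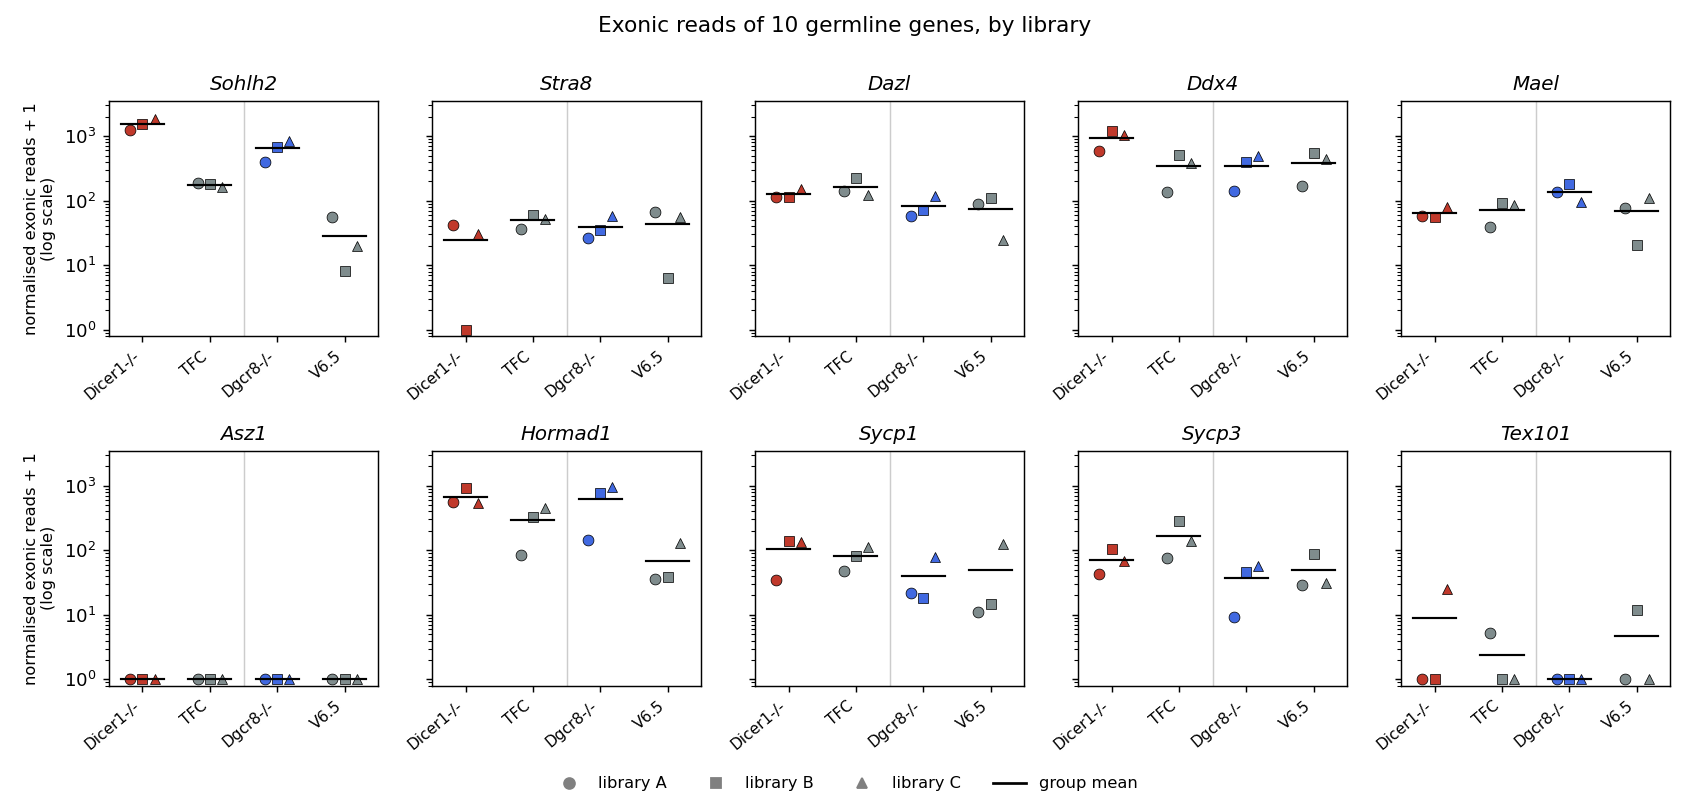
Normalised exonic reads + 1 of each gene (log scale) in the 3 libraries of Dicer1-/-, TFC, Dgcr8-/- and V6.5 ESCs, with bars at the group means. Sohlh2 lies at 1244 to 1839 in Dicer1-/- cells against 164.0 to 189.4 in TFC, and at 403.5 to 853.8 in Dgcr8-/- cells against 7.26 to 55.9 in V6.5. The 2 pairs were scaled separately.

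Sohlh2 encodes a helix-loop-helix transcription factor that drives differentiation of spermatogonia and early oocytes. It lies on chromosome 3 (mm10, 55182028 to 55209957, plus strand, GENCODE M21). Its exonic reads were 1244, 1568 and 1839 in Dicer1-/- libraries A, B and C, against 189.4, 177.6 and 164.0 in TFC. The lowest knockout library thus stood far above the highest wild-type one, and the means were 1550 ± 298 and 177.0 ± 12.7 (SD, 3 libraries each). The log2 fold change was 3.11 (SE 0.34), with an adjusted p of 0.00945 by limma. Over the alternatives in processing the adjusted p ran from 0.000236 to 0.174. It was 0.0193 without knockout library A and 0.00521 without TFC library A, but 0.0553 to 0.174 without any 1 of the other 4 libraries.

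In Dgcr8-/- cells Sohlh2 had 404, 676 and 854 exonic reads in libraries A, B and C, against 55.9, 7.26 and 19.13 in V6.5. The V6.5 values came from 22, 8 and 12 whole reads. Again the groups were apart, with means of 644.4 ± 227 and 27.4 ± 25.3 (SD, 3 libraries each). The log2 fold change was 4.87 (SE 0.78; adjusted p = 0.0380, 0.00155 to 0.219 over the alternatives). The call held without knockout library A (adjusted p = 0.0261) or V6.5 library A (0.0195), and was lost without any 1 of the other 4 (0.168 to 0.219), with limma-voom on the recovered reads (0.0900) and without the trend on level (0.0519). Between the A libraries alone the log2 difference was 2.83, and between the means of B and C it was 5.88. The difference between the knockouts themselves did not pass: the Dicer effect minus the Dgcr8 effect was -1.76 (SE 0.87, 95% interval -3.64 to 0.13; adjusted p = 0.760), where 0.154% of 12331 genes were called.

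Introns of Sohlh2, whose reads are taken to come mainly from unspliced RNA though this was not tested, carried few reads. They stood at 95.6, 43.9 and 96.0 in Dicer1-/- libraries, against 7.11, 0 and 39.1 in TFC. The knockout libraries were the higher ones without overlap, but the spread was wide and the difference of 3.45 (SE 1.79) did not pass (adjusted p = 0.529). In Dgcr8-/- libraries 2.56, 9.17 and 16.2 intronic reads stood against 0 in all 3 V6.5 libraries, under the filter. Exonic minus intronic change of Sohlh2 in Dicer1-/- cells was -0.33 (95% interval -3.64 to 2.97; adjusted p = 0.975), so a difference between the exonic and intronic change was not detectable.

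Per kilobase of exon, Sohlh2 stood at 660.3 normalised reads in Dicer1-/- cells against 75.4 in TFC, a level above 85.9% and 52.8% of the 18412 genes in each line. In Dgcr8-/- cells the level was 274.4 per kilobase against 11.7 in V6.5, above 76.7% and 37.4% of genes. Pou5f1, the pluripotency factor Oct4, stood at 13310 and 11530 per kilobase in the first pair and at 10840 and 6643 in the second. Sohlh2 was thus a gene of middle to upper level in the knockouts, well under Pou5f1. Of the 7 members other than Sohlh2, Ddx4 and Hormad1, Sycp3 in TFC had the highest level, at 147.7 per kilobase, above 62.1% of genes, followed by Mael in Dgcr8-/- cells at 88.8, above 58.6%.

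Ccdc169, the gene upstream on the same strand, ends 9093 bases before Sohlh2. Its exons had 31.1 reads in Dicer1-/- cells against 9.57 in TFC, and 33.7 in Dgcr8-/- cells against 3.19 in V6.5, with overlapping groups and adjusted p of 0.853 and 0.307. The genes whose exonic pattern was most like that of Sohlh2 over the 12 libraries, each centred on the mean of its pair, were Pipox, a peroxisomal oxidase (Pearson r 0.984), Mras, a Ras-family GTPase (0.984), and Rragd, a GTPase of amino acid sensing (0.981), among 12331 genes. These values share libraries and depth and are a description. Pipox stood at 2449 against 1122 reads in TFC and at 1713 against 536.4 in V6.5, a smaller ratio than that of Sohlh2 in each pair. Of the other members, Hormad1 had an r of 0.782 with Sohlh2, Mael 0.562, Ddx4 0.212 and Sycp3 -0.407.

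Stra8 and Dazl are the other regulators among the members. Stra8, which answers retinoic acid and licenses entry into meiosis, had 40.9, 0 and 29.2 exonic reads in Dicer1-/- libraries, against 35.3, 60.03 and 51.8 in TFC. In Dgcr8-/- libraries it had 25.9, 34.2 and 56.0, against 66.0, 5.44 and 54.2 in V6.5. Both pairs overlapped, with adjusted p of 0.621 and 0.923. The Stra8 difference of -2.18 (SE 1.70) in Dicer exons rests on library B at 0, and between the A libraries it was 0.21.

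Dazl encodes an RNA-binding protein that germ cells need to take up their fate. Its exonic reads were 112.5, 114.7 and 151.4 in Dicer1-/- libraries, against 140.2, 220.1 and 120.8 in TFC (adjusted p = 0.876). In Dgcr8-/- libraries they were 57.2, 71.5 and 115.9, against 88.9, 110.7 and 23.9 in V6.5 (adjusted p = 0.909). Exons of Dazl therefore showed overlapping groups in both pairs. Its introns had another pattern in the Dicer pair, with 22.7, 85.5 and 39.5 reads in Dicer1-/- libraries against 9.14, 0 and 0 in TFC, all knockout libraries being higher. This intronic difference of 4.33 (SE 2.01) did not pass (adjusted p = 0.488). The exonic minus intronic change was -4.64 (SE 1.14, 95% interval -7.44 to -1.84), with an unadjusted limma p of 0.00678 and an adjusted one of 0.925 (0.305 to 0.996 over the alternatives). By limma, 0 of 10987 genes were called in that comparison, and 3.57% had an unadjusted p under 0.05. In the same comparison of the Dgcr8 pair, where Dazl lay under the filter in introns, limma called 0 of 10357 genes, and 5.71% had an unadjusted p under 0.05.

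Ddx4, Mael and Asz1 act in the nuage, the germ-cell granule in which piRNAs, small RNAs against transposons, are made. Ddx4, the RNA helicase also called Vasa, had 581.5, 1197 and 1044 exonic reads in Dicer1-/- libraries, against 133.2, 502.7 and 385.5 in TFC. All 3 knockout libraries were higher, each A library being the lowest of its group, and the means were 940.8 ± 321 and 340.5 ± 189 (SD, 3 libraries each). The log2 fold change of 1.601 (SE 0.551) did not pass (adjusted p = 0.225), while with a term for the library set, A against B and C, the adjusted p was 0.00804. With that term 7.24% of the genes tested were called higher in Dicer exons, against 1.02% without it. The labels name no such set. Library A was picked in each group from these same data, so p-values with the term may be too small. Introns of Ddx4 went the same way, at 115.8, 256.6 and 73.4 against 49.3, 24.5 and 0 in TFC, again without a call (3.59, SE 1.57; adjusted p = 0.466).

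In Dgcr8-/- cells Ddx4 stood at 141.9, 393.1 and 489.3 exonic reads, against 167.6, 539.8 and 435.1 in V6.5. These groups overlapped throughout, and the log2 fold change was -0.18 (SE 0.63; adjusted p = 0.944). The Dicer effect minus the Dgcr8 effect was 1.78 (SE 0.90, 95% interval -0.18 to 3.73), with an adjusted p of 0.776, and 0.0351 with the library set term. Ddx4 was the member with the highest level per kilobase in V6.5, at 133.7, above 64.9% of genes, so its RNA was present in a wild-type line.

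Mael, the Maelstrom protein of piRNA-guided silencing, had 56.9, 54.5 and 79.7 exonic reads in Dicer1-/- libraries, against 38.5, 90.0 and 86.3 in TFC (adjusted p = 0.9797). Dgcr8-/- libraries had 137.3, 180.2 and 94.3, against 76.2, 19.96 and 108.4 in V6.5, with a log2 fold change of 1.25 (SE 0.76; adjusted p = 0.485). Library C of V6.5 lay above library C of the knockout, so the groups overlapped. Asz1, an ankyrin-repeat scaffold of the nuage, had 0 exonic reads of 220193137 over the 12 libraries. A count of 0 allows up to 3 reads by counting error alone, if each read is counted independently. Most read numbers in these libraries were even, so the bound may be higher. Introns of Asz1 held 6 reads, all in Dicer1-/- library A.

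Hormad1, Sycp1 and Sycp3 belong to meiotic chromosome axes and the synaptonemal complex, which holds paired chromosomes together. Hormad1, the axis protein that promotes double-strand breaks and pairing, had 557.2, 933.7 and 543.1 exonic reads in Dicer1-/- libraries, against 83.5, 327.7 and 454.5 in TFC. Every knockout library lay above every wild-type one, but library C of the knockout stood only slightly above library C of TFC. The log2 fold change was 1.496 (SE 0.646; adjusted p = 0.337, and 0.0588 with the library set term). Without TFC library A it was 0.76.

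In Dgcr8-/- cells Hormad1 had 145.6, 779.2 and 948.2 exonic reads, against 35.6, 38.1 and 130.7 in V6.5. Means were 624.3 ± 423 and 68.1 ± 54.2 (SD, 3 libraries each), and library A of the knockout was only just above library C of V6.5. The log2 fold change of 3.06 (SE 0.86) did not pass (adjusted p = 0.131). It passed without knockout library A (0.0268) and with the library set term (0.00509), which called 8.34% of the genes tested higher in Dgcr8 exons. Hormad1 and Sohlh2 were the 2 members called higher with that term in Dgcr8 exons, and Sohlh2 and Ddx4 the 2 in Dicer exons.

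Introns of Hormad1 had 202.0, 258.9 and 223.0 reads in Dicer1-/- libraries, against 42.7, 28.9 and 61.5 in TFC. These groups lay clear of each other, at means of 228.0 ± 28.8 and 44.4 ± 16.4 (SD, 3 libraries each), but the difference of 2.39 (SE 0.69) did not pass (adjusted p = 0.211). In Dgcr8-/- libraries 35.9, 279.2 and 187.6 intronic reads stood against 41.5, 9.28 and 2.50 in V6.5. Libraries B and C differed by 5.26 on the log2 scale and the A libraries by -0.20, so the groups overlapped and the whole difference of 3.44 (SE 0.99) did not pass (adjusted p = 0.110). Exonic and intronic changes of Hormad1 were not told apart in either pair, with exonic minus intronic changes of -0.89 (95% interval -2.61 to 0.83) in Dicer and -0.42 (-3.56 to 2.72) in Dgcr8 cells. The neighbour Golph3l begins 1263 bases downstream on the same strand and had overlapping groups, at 1088 against 1744 reads in TFC and 813.1 against 870.1 in V6.5.

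**Figure D3:**
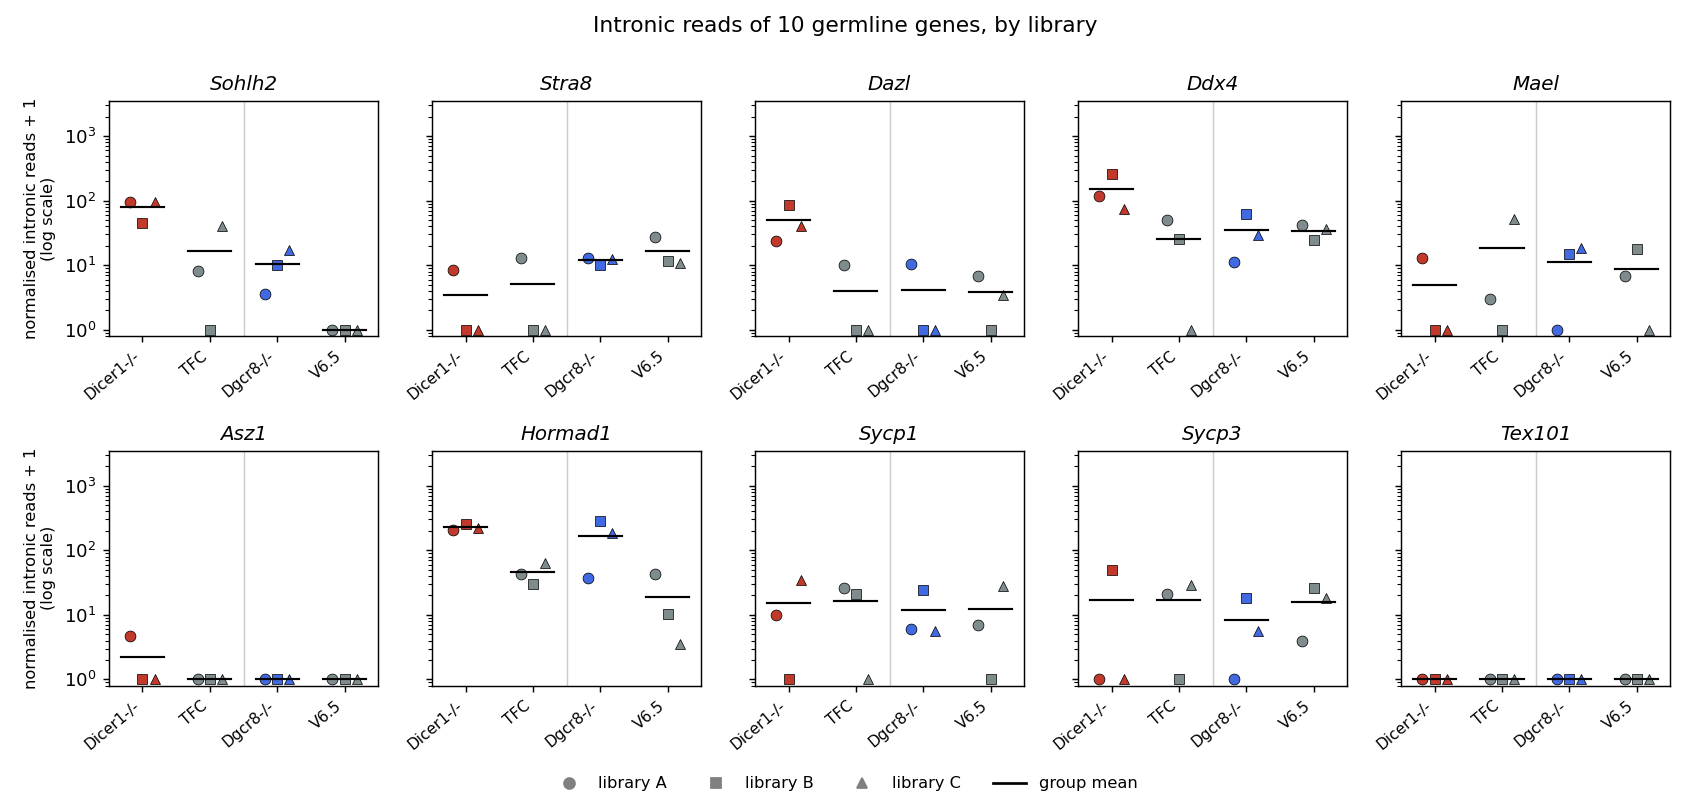
Normalised intronic reads + 1 of each gene (log scale) in the 3 libraries of each line, with bars at the group means. Hormad1 lies at 202.0 to 258.9 in Dicer1-/- cells against 28.9 to 61.5 in TFC, while most other genes have libraries at 0.

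Sycp1, the transverse filament of the synaptonemal complex, had 33.9, 138.6 and 135.4 exonic reads in Dicer1-/- libraries, against 46.5, 80.0 and 112.2 in TFC. In Dgcr8-/- libraries it had 20.9, 17.1 and 78.4, against 10.2, 13.6 and 122.7 in V6.5. The spread between libraries of a line was wider than the difference in each pair (adjusted p of 0.953 and 0.967). Sycp3, a lateral element of the same complex, had 41.5, 103.4 and 66.4 reads in Dicer1-/- libraries, against 74.9, 282.6 and 139.5 in TFC. It had 8.35, 45.1 and 56.0 in Dgcr8-/- libraries, against 27.9, 87.1 and 30.3 in V6.5. Its means were the lower ones in both knockouts, with log2 fold changes of -1.11 (SE 0.88; adjusted p = 0.627) and -0.57 (SE 0.98; adjusted p = 0.858) and overlapping groups. Chpt1 overlaps Sycp3 on the opposite strand, and no source used here says how the authors' counting used strand.

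Tex101, a surface protein of male germ cells, had 38 exonic reads in all. Of these, 18 were in Dicer1-/- library C, 8 in TFC library A and 12 in V6.5 library B, and its introns had 0. It was under the filter in each table.

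**Figure D4:**
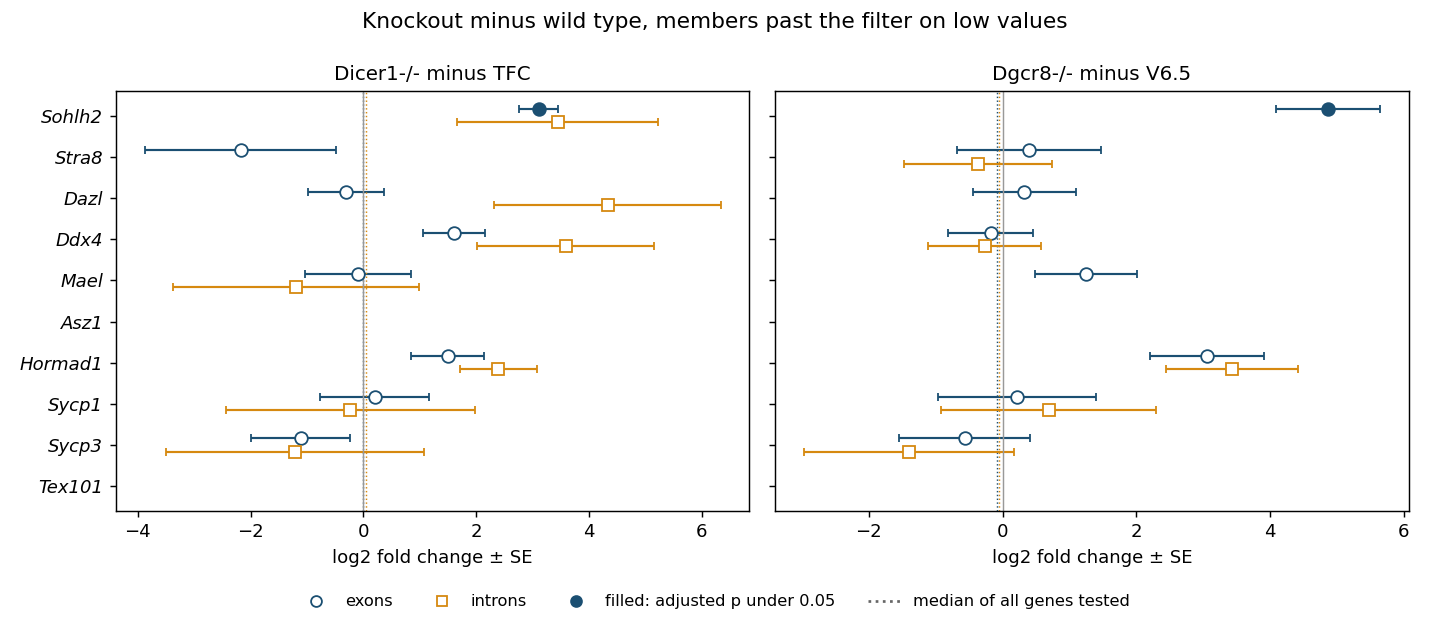
Log2 fold change of knockout minus wild type (horizontal axis) with its standard error for the members that passed the filter on low values, in exons (circles) and introns (squares). Filled symbols mark an adjusted p under 0.05, which only the exons of Sohlh2 reached in each pair, and dotted lines give the medians of all genes tested.

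In introns, 7 members were tested in the Dicer pair and 5 in the Dgcr8 pair, and limma called 0 in either direction, where 0.353% of 11625 and 1.52% of 10748 genes were called. With an unadjusted p under 0.05 there were 3 and 1, beside 10.1% and 14.5% of all genes. The 4 members with all Dicer1-/- libraries higher were Sohlh2, Dazl, Ddx4 and Hormad1, where 9.27% of the genes tested in Dicer introns had such groups. In Dgcr8 introns Sohlh2 alone had them, under the filter, against 9.61% of the genes tested.

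Other germline genes were read from lists, which also hold genes with many reads in these ESCs. Smc3, among the meiosis genes, stood at 10840 exonic reads in Dicer1-/- cells against 12800 in TFC. Zfp42, among the genes silenced by methylation, is also in the list of ESC markers. Counts and medians of the lists include such genes. Each exonic call named from a list was lost when any 1 library B or C of either line was left out. The library set term called 4.95% of the genes tested lower in Dicer exons and 8.61% in Dgcr8 exons, beside the 7.24% and 8.34% called higher, and its counts for each list are to be read against these shares. Of 34 meiosis genes 31 were in the data, and in Dicer exons 0 of 21 tested were called higher and 1 lower, in Dgcr8 exons 0 of 19 in either direction (medians -0.02 and 0.10). The gene called was Syce2, a central element of the synaptonemal complex, at 586.3 reads in Dicer1-/- cells against 2088 in TFC (-1.83; adjusted p = 0.0340, lost without knockout library A as well). With the set term 2 meiosis genes were called higher and 1 lower in Dicer exons, and 3 higher and 1 lower in Dgcr8 exons. Tex11, a meiotic recombination factor on the X chromosome, was among those called higher in each pair, at 442.5 reads against 74.9 in TFC and 203.1 against 22.5 in V6.5 (adjusted p of 0.0222 and 0.0101 with the set term, 0.131 and 0.144 without it). Of 24 piRNA and nuage genes 17 were tested in each pair and 0 were called (medians 0.54 and 0.05), while the set term called 2 higher and 3 lower in Dicer exons and 3 higher and 1 lower in Dgcr8 exons. Of 42 further genes listed as silenced by methylation, 18 were tested in each pair, with 0 called higher and 1 lower (medians 0.39 and 0.40). That gene was Usp26, a ubiquitin protease of the testis on the X chromosome, at 1.70 reads against 645.0 in TFC (adjusted p = 0.0278) and 3.11 against 432.3 in V6.5 (adjusted p = 0.0390). With the set term 0 of them were called higher and 2 lower in Dicer exons, and 2 higher and 2 lower in Dgcr8 exons. Dppa3 was 1 of the 2 called lower in each pair, and it is also in the list of primordial germ cell markers. In Dgcr8 introns Nlrp4e, an oocyte gene from a family of similar genes, fell to 128.5 reads, against 2926 in V6.5 (adjusted p = 0.00150). In Dicer introns it lay the other way, at 438.7 reads against 77.7 in TFC with groups apart (2.29; adjusted p = 0.196, and 0.046 with the set term). Its exons were at 0 in all 12 libraries, and no source used here says how reads matching several such genes were counted.

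The regulators of this silencing were mostly not called. Of 31 such genes, 29 were tested in Dicer exons with 0 higher and 1 lower, and 28 in Dgcr8 exons with 0 in either direction (medians 0.01 and 0.38). Dnmt3l fell in Dicer1-/- cells to 1273, 1446 and 1351 reads, against 5976, 9297 and 8883 in TFC (-2.54, SE 0.25; adjusted p = 0.00767). In the Dgcr8 pair it stood at 2016, 1165 and 1409, against 4842, 1659 and 1446 in V6.5, with overlap (adjusted p = 0.620). Dnmt1 was 8458 against 6325 in TFC and 6448 against 3952 in V6.5, Dnmt3a 4278 against 3944 and 4276 against 2253, and Dnmt3b 5300 against 9963 and 4821 against 7069. None of these 3 methyltransferases passed in either pair, with adjusted p of 0.192 to 0.953. With the set term Dnmt1 and Dnmt3a were called higher in Dgcr8 exons (adjusted p of 0.0152 and 0.00625). Uhrf1 stood at 5687 against 7799 in TFC and 4512 against 4439 in V6.5, and Tet2, an enzyme that oxidises methylated cytosine, at 5849 against 5266 and 5878 against 2397. Those 2 did not pass either, but with the set term Uhrf1 was called lower in Dicer exons (adjusted p = 0.0423). That term called 3 of the regulators higher and 5 lower in Dicer exons, and 5 higher and 1 lower in Dgcr8 exons.

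Among the Polycomb subunits, E2f6 had 734.8, 946.2 and 1133 reads in Dicer1-/- libraries, against 439.2, 413.9 and 569.5 in TFC. Its groups were apart, with the knockout higher, but the difference of 0.97 (SE 0.33) did not pass (adjusted p = 0.215, and 0.0358 with the set term). In Dgcr8-/- cells E2f6 stood at 692.2 against 839.7 in V6.5. Mga stood at 13650 against 16150 in TFC and 11840 against 7889 in V6.5, Pcgf6 at 1716 against 2355 and 1266 against 1460, and L3mbtl2 at 2471 against 2480 and 2333 against 1731. These 4 had adjusted p of 0.215 to 0.988 in the Dicer pair and 0.6915 to 0.8001 in the Dgcr8 pair.

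Markers of other cells were read beside these results. All 10 markers of primordial germ cells were tested, and their summed exonic reads were 15650 to 24860 in Dicer1-/- libraries against 8649 to 17370 in TFC, and 10390 to 16160 in Dgcr8-/- libraries against 5585 to 10740 in V6.5. On the log2 scale 9 had the higher mean in the knockout and 1 the lower in Dicer exons, and 8 and 2 in Dgcr8 exons. Their medians were 0.76 and 1.055, beside -0.01 and -0.08 over all genes tested. Calls of a higher level are to be read against 1.02% and 0.745% of the genes tested. In Dicer1-/- cells 1 was called higher, Ifitm3, at 4349 reads against 1949 in TFC (1.17, adjusted p = 0.0491 by limma). That call was lost without knockout library A as well. In Dgcr8-/- cells 1 was called higher, Prdm14, at 695.0 against 122.3 in V6.5 (2.66, adjusted p = 0.0494 by limma). Both are also expressed in ESCs. Dppa3, or Stella, had 229.0 reads in Dicer1-/- cells against 976.0 in TFC and 85.97 in Dgcr8-/- cells against 820.3 in V6.5 (adjusted p of 0.0605 and 0.0674), with all knockout libraries lower. Nanos3 stood at 77.9 against 19.8 and 20.4 against 13.7. With the set term 3 were called higher and 1 lower in Dicer exons, and 5 higher and 1 lower in Dgcr8 exons. The 1 called lower was Dppa3 in each pair, already counted among the genes silenced by methylation. The sums overlapped between the groups of each pair, and the part of these markers in the Sohlh2 difference was not tested.

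Oocyte markers summed to 14.8 to 100.9 reads in Dicer1-/- libraries against 0 to 73.8 in TFC, and to 20.8 to 79.3 in Dgcr8-/- libraries against 3.19 to 96.5 in V6.5, over 9 genes. The spermatid genes Prm1, Prm2, Tnp1, Tnp2 and Acrv1 were at 0 reads in every library. The list of spermatid and Sertoli markers summed to 181.7 to 371.9 reads in Dicer1-/- libraries against 34.2 to 382.6 in TFC, and to 404.3 to 677.4 in Dgcr8-/- libraries against 69.9 to 169.0 in V6.5. In Dgcr8-/- libraries most of it was Wt1, a factor of many embryonic tissues, at 542.6 reads against 94.7 in V6.5 (adjusted p = 0.0614, and 0.00331 with the set term), which rose in Dgcr8 introns to 233.6 against 38.9 (adjusted p = 0.0234, up to 0.161 leaving out 1 library, with the call lost without knockout library B or C or V6.5 library A or C). Of 6 markers of 2-cell-like ESCs tested in each pair, 0 were called. Fibroblast markers were read as possible signs of feeder cells, though the stated culture was on gelatin-coated plastic. Without Fn1 they summed to 425.6 to 638.4 reads in Dicer1-/- libraries against 479.3 to 1099 in TFC. With it they summed to 11510 to 16420 in Dgcr8-/- libraries against 17720 to 44230 in V6.5. Col1a1, Acta2 and Tagln were the 3 of 12 called lower in Dgcr8 exons, where 0.518% of 12745 genes tested were. Col1a1 stood at 47.98 against 1375 reads in V6.5. Of these 12 markers, 11 had the lower mean in the knockout on the log2 scale and 1 the higher. Their median was -3.39, beside -0.08 over all genes tested. The part of cells with these markers in the members' values was not tested. Of the ESC markers, 0 of 8 were called in Dicer and 0 of 9 in Dgcr8 exons, with medians of 0.17 and 0.86. In Dgcr8 exons 8 of the 9 had the higher mean in the knockout on the log2 scale, and the set term called 5 higher, Pou5f1, Nanog, Sox2, Esrrb and Tfcp2l1, and 7 of the fibroblast markers lower. In Dicer exons that term called 1 fibroblast marker higher, Tagln, and 0 lower. Of the 11 fibroblast markers tested there, 9 had the lower mean in the knockout on the log2 scale and 2 the higher. Their median was -1.48, beside -0.01 over all genes tested. In Dgcr8 introns 1 of 8 ESC markers was called higher, Nanog, a pluripotency factor. It stood at 376.5 intronic reads against 147.7 in V6.5 (1.35, adjusted p = 0.0493 by limma, lost without any 1 of the 6 libraries). Acta2 was at 0 intronic reads in all Dgcr8-/- libraries against 92.4 in V6.5 (adjusted p = 0.0246 by limma). That p ran up to 0.234 leaving out 1 library, and the call was lost without knockout library B or V6.5 library B or C.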

How the data were processed

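Polyadenylated RNA of 12 ESC libraries was sequenced. The submitters' processing notes name TopHat2 2.0.12, DESeq and build mm10. The annotation and the strand setting of the counting are not stated. The authors deposited a signal, reads divided by size factors, as 1 group mean per gene. Each mean was solved for 3 size factors (0.394 to 2.40 in exons, 0.338 to 1.97 in introns) and whole reads per library. At most 98 of 18412 genes per column had several solutions and were left out. Of the read numbers 60.2 to 80.4% were even, so precision is lower than depth implies. Libraries differed by more than sampling noise (lowest chi-square per gene 13.3). Intronic libraries were matched to exonic ones by their deviations from the group mean. Matched deviations correlated at r of 0.093 to 0.431, lowest in Dicer1-/- libraries B and C, at 0.093 and 0.096. The match is weak there, and the exonic minus intronic changes rest on it.

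Limma 3.58.1 in R 4.3.3 (trend on level, 4 residual degrees of freedom per table) was run on log2(value + 1) with Benjamini-Hochberg adjustment, and was tested on simulated data. Exonic minus intronic changes were centred on each library's median. The added 1 understates changes of low genes, and a library at 0 can widen them. Alternatives were pseudocounts 0.5 and 5, other filters and scalings, no trend, limma-voom, a library set term and leaving out each library. Swapping intronic libraries B and C was added after seeing the data. Members and lists were chosen with earlier results of these data known. Named genes were all members, list genes called, main regulators, targeted genes and the 3 genes most like a called member, and others were chosen after their values were seen. Positions are from GENCODE M21 and promoters from RefSeq GRCm38.p6, the assembly of mm10.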

Additional observations from a re-analysis of the deposited data

How the results depend on the processing

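Of 695 alternative values for members, 630 kept their direction and side of the threshold, 51 changed sign without a call in either setting, 10 lost and 4 gained a call, and 0 called values reversed. Genes called in Dicer exons numbered 164, against 35 without the trend on level, 21 with limma-voom, 1606 with the library set term, and 0 to 483 leaving out 1 library. In Dicer introns they numbered 41, against 72 with pseudocount 5, 1 without the trend, 64 with limma-voom, 91 with the set term, and 0 to 37 leaving out 1 library. In Dgcr8 exons they numbered 161, against 49 with limma-voom, 2160 with the set term, and 0 to 465 leaving out 1 library. In Dgcr8 introns they numbered 163, against 272 with pseudocount 5, 107 without the trend, 451 with the set term, and 26 to 176 leaving out 1 library. For the Dicer minus the Dgcr8 effect they numbered 19, against 337 with the set term and 11 to 100 leaving out 1 library. The cause of these changes was not tested, beyond fewer libraries in the last setting. No paired analysis was possible because libraries solved from group means cannot be tied to the labels' replicate numbers. With 3 libraries a group and few intronic reads, differences in the introns of low members were not detectable.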
